A study of Mus musculus with 2 samples.

Results

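The 10 genes of MHC class I antigen presentation described here were read in RNA-seq libraries of whole omentum. They were H2-K1, H2-D1, H2-T23, B2m, Tap1, Tap2, Tapbp, Psmb8, Psmb9 and Nlrc5, chosen by gene symbol, and all 10 were found among the 24346 symbols listed. The omentum is a fatty fold of the peritoneum whose milky spots hold lymphocytes, macrophages and stroma. The WT genotype had 1 library and the Postn-DTR genotype 1, both made 5 days after diphtheria toxin (DT), so the WT control had received the toxin as well. In the heterozygous Postn-DTR animals, created in C57BL/6 zygotes, the human toxin receptor sits in the Postn gene and DT kills cells that use the Postn promoter, a promoter that is also active outside the omentum. Age, sex and the number of mice behind a library were not given in the sources used here. With 1 library per genotype no difference has a replicate check, no test between genotypes was possible, and no p-value is given.

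MHC class I molecules carry peptides from the cytosol to the cell surface, where CD8 T cells and NK cells read them. A class I molecule is a heavy chain, such as the product of H2-K1 or H2-D1, bound to beta-2 microglobulin, the product of B2m. Its peptides are cut by the proteasome, whose constitutive catalytic subunits can be exchanged for the inducible ones encoded by Psmb8, Psmb9 and Psmb10, and are then pumped into the endoplasmic reticulum by the TAP1 and TAP2 transporter and loaded with the help of tapasin, encoded by Tapbp. NLRC5 is the transactivator of class I genes, as CIITA is that of class II genes, and interferon gamma induces the whole set. Nearly all nucleated cells carry class I molecules, with high levels on leukocytes.

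In the FPKM as deposited, the class I chains and the genes that supply their peptides lay on opposite sides, but with acinar genes removed and totals equal only H2-D1 stayed on the higher side. The 3 heavy chain genes and B2m had higher FPKM (fragments normalised to transcript length and to library size) in Postn-DTR than in WT, by 17.2% for B2m to 33.9% for H2-D1. Tap1, Tap2, Tapbp, Psmb8, Psmb9 and Nlrc5 had lower FPKM in Postn-DTR, with differences of -6.74% for Tapbp to -36.5% for Psmb9. On the scale of log2(FPKM + 1), Postn-DTR minus WT, none of the 10 genes reached a 2-fold difference, against 3.12% of the 13127 genes compared that were at least 2-fold lower and 3.88% that were at least 2-fold higher. At such shares a set of 10 genes would often hold none, so this count says little about the set. At 1.5-fold only Psmb9 was past the threshold, as were 8.84% of all genes in the lower direction and 9.86% in the higher direction. With acinar genes removed and totals equal, Psmb9, Tap1 and Tap2 were past it in the lower direction, as were 20.6% of all genes, and none in the higher direction, beside 4.75% of all genes. Psmb9 was then at -0.98, close to the 2-fold threshold. Genes were compared when their mean FPKM over both libraries was at least 1, and all 10 passed this minimum.

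Of the genes, 8 lie in the H2 complex on chromosome 17 in the mouse. The promoters of the 4 chain genes and of Tap1 are shown because the same letters recur in them. RefSeq promoter windows, which cover 250 bases before and 50 bases after an annotated start on GRCm38.p6, existed for 8 of the 10 genes, all except Tap2 and Nlrc5. The windows were searched on both strands for TGACG (the half-site bound by CREB-family factors, as in the X2 box of class I promoters), CCAAT (the NF-Y box), a kappaB motif (GGG, any 2 bases, then TTCCC) and AANNGAAA (the core bound by interferon regulatory factors). Capitals mark the matches, and no match overlapped another. H2-K1 has a pair of windows that differ by their start, and the first is printed.
H2-K1 promoter, chr17:34000298-34000597, minus strand: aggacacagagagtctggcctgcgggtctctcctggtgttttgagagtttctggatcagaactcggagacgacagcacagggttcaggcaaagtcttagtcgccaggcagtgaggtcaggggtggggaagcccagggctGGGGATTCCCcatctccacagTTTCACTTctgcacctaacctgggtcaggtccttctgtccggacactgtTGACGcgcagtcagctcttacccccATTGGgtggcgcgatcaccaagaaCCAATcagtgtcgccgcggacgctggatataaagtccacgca
H2-D1 promoter, chr17:35262844-35263143, plus strand: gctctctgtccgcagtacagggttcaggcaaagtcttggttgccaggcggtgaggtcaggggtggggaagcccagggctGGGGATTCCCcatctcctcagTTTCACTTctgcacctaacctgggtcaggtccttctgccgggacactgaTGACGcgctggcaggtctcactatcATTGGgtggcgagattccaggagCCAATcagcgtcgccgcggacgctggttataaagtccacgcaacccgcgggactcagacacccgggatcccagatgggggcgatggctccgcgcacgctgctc
H2-T23 promoter, chr17:36032652-36032951, minus strand: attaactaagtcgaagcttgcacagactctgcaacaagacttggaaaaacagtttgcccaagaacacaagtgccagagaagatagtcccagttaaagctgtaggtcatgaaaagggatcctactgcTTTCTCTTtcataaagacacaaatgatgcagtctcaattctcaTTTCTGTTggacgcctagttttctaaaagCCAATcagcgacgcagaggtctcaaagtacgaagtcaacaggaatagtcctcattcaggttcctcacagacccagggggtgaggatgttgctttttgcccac
B2m promoter, chr2:122147437-122147736, plus strand: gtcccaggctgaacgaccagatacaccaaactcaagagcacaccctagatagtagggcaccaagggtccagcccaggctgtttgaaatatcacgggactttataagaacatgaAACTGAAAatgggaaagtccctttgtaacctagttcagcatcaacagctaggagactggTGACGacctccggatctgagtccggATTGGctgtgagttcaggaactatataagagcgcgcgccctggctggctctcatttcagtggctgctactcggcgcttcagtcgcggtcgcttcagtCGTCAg
Tap1 promoter, chr17:34187306-34187605, plus strand: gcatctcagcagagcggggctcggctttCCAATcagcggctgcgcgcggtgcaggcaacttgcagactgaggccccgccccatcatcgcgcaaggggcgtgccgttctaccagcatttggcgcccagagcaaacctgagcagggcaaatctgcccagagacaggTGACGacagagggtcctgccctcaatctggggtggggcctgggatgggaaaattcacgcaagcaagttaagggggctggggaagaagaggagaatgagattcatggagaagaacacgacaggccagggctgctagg

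The H2-K1 and H2-D1 windows aligned over 228 columns with 90.4% identity, and both held all 4 motifs. H2-K1, H2-D1 and B2m, the 3 most abundant of the 10 transcripts, shared one arrangement. In each of them TGACG was followed on the same strand by ATTGG, the reverse complement of CCAAT, with exactly 20 bases between. Such a pair, with any 10 to 30 bases between and searched only on the strand as printed, was found in 0.371% of all 32851 windows. The share with exactly 20 bases between was not counted. Taken singly, TGACG was present in 20.8% of all windows, CCAAT in 37.4%, the kappaB motif in 1.75% and AANNGAAA in 23.9%. The H2-T23 window held CCAAT and AANNGAAA but not the letters TGACG. The Tap1 and Psmb9 windows overlap by 275 bases on opposite strands, so the Tap1 sequence above, read as its reverse complement, is also most of the Psmb9 promoter. It held TGACG and CCAAT. The Tapbp window held CCAAT and the Psmb8 window none of the 4 motifs. A match is a description of the letters and not evidence of binding.

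Postn, the targeted gene, was at 58.3 FPKM in WT and at 16.2 FPKM in the Postn-DTR library. Omental markers were present in both libraries, among them the adipocyte gene Adipoq at 955.2 and 635.9 and the mesothelial gene Upk3b at 211.6 and 181.9. Of 4 adipocyte markers 3 were lower in Postn-DTR and Fabp4 was higher. Of 4 mesothelial markers 2 were lower, and Msln and Upk1b were higher. Both splits were the same with acinar genes removed and totals equal. The total of all FPKM was 542190 for WT and 671882 for Postn-DTR. The spacing of low FPKM values placed the libraries at about 23400000 and 24300000 fragments. Pancreatic acinar genes set the libraries apart, since 32 listed acinar genes summed to 13014 FPKM in WT, or 2.40% of the total, and to 20.9 FPKM in Postn-DTR, or 0.00311%. Their part in the class I values was not tested. With those genes left out and equal library totals, the median change of all genes moved by -0.30, which is as large as most of the differences below. With equal totals and the acinar genes kept, it moved by -0.27, so most of the shift came with making the totals equal and not with leaving out the acinar genes. A total includes the most abundant transcripts, which were Cfd at 7764 FPKM in WT and Saa3 at 22469 FPKM in Postn-DTR. Their part in the shift was not tested. The directions of the 10 genes are therefore also given relative to the median of all genes and as ratios within a library. The other genes are given on the scale as deposited, with the lists whose directions turn under equal totals named as such.

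**Figure D1:**
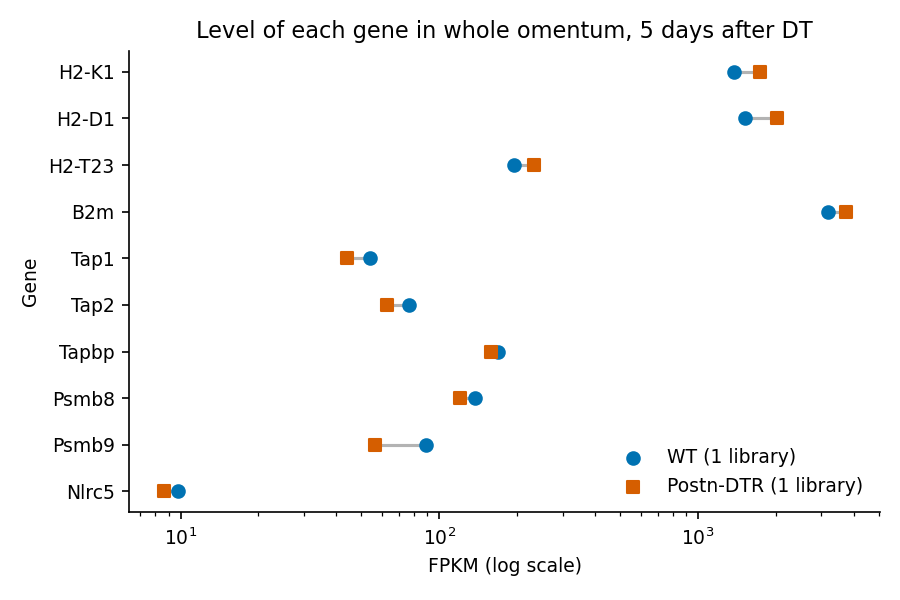
FPKM of the 10 genes on a log axis, with 1 circle for the WT library and 1 square for the Postn-DTR library. The class I chains and B2m reach from 193.9 to 3725, the transport, loading and proteasome genes from 44.1 to 169.3, and Nlrc5 lies below 10, with the square to the right of the circle for the chains and to its left for the other genes, on the scale as deposited. With acinar genes removed and totals equal, H2-K1, H2-T23 and B2m change sides.

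Heavy chains present the peptide. H2-K1 (ENSMUSG00000061232, chromosome 17, 33996017 to 34000347 on the minus strand, GRCm38) encodes the classical K chain. Its FPKM was 1383 in WT and 1738 in Postn-DTR, which was 1.26-fold higher with a change of 0.33 on the log2(FPKM + 1) scale. H2-D1 (ENSMUSG00000073411, chromosome 17, 35262730 to 35267499 on the plus strand) encodes the classical D chain. Its FPKM was 1514 in WT and 2027 in Postn-DTR, 1.34-fold higher with a change of 0.42. This was the most positive change among the 10 genes, but 15.8% of all genes compared had a more positive change. H2-T23 (ENSMUSG00000067212, chromosome 17, 36029773 to 36032855 on the minus strand) encodes Qa-1, a nonclassical chain read by the CD94/NKG2A receptor of NK cells. It was far less abundant than the classical chains, at 193.9 in WT and 232.8 in Postn-DTR, with a change of 0.26. The K and D chain transcripts stood in nearly the same proportion in both libraries, since the H2-K1 to H2-D1 ratio was 0.913 in WT and 0.857 in Postn-DTR.

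Class I heavy chains are close relatives, so part of their reads may not be assignable to 1 gene. Of all 50-base windows along the transcript, 8.79% in H2-K1, 14.3% in H2-D1 and 28.8% in H2-T23 were also present in transcripts of other genes of the GENCODE annotation. At 100 bases these shares were 0%, 4.64% and 7.28%. The files also list H2-L, at 146.3 FPKM for WT and 150.2 FPKM for Postn-DTR, a symbol with no entry in that annotation. With H2-L added to H2-D1 the change of H2-D1 was 0.39. B2m, Psmb8, Psmb9 and Nlrc5 shared no window at either length, and Tap1 and Tap2 shared 0.861% and 0.737% of theirs at 50 bases, with each other.

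B2m (ENSMUSG00000060802, chromosome 2, 122147686 to 122153083 on the plus strand) encodes the light chain that all class I heavy chains need, and lies outside the H2 complex. It was the most abundant of the 10 transcripts and ranked 8 among all genes in WT and 15 in Postn-DTR. Its FPKM was 3177 in WT and 3725 in Postn-DTR, 1.17-fold higher with a change of 0.23. Over the summed FPKM of H2-K1, H2-D1 and H2-T23, which was 3091 in WT and 3998 in Postn-DTR, B2m stood at a ratio of 1.03 in WT and 0.932 in Postn-DTR. Per length, light and heavy chain transcripts were thus near equal in level in both libraries.

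The transporter genes are neighbours of the inducible proteasome genes. Psmb9, Tap1, Psmb8 and Tap2 follow each other within 34.3 kb of chromosome 17 between 34181987 and 34216321, inside the class II region, with no other compared gene among them. Tap1 (ENSMUSG00000037321, 34187553 to 34197225, plus strand) stood at 53.9 FPKM in WT against 44.1 in Postn-DTR, with a change of -0.29. Tap2 (ENSMUSG00000024339, 34203527 to 34216321, plus strand) stood at 76.7 FPKM in WT against 62.7 in Postn-DTR, with a change of -0.28. The products of Tap1 and Tap2 form a heterodimer, and the ratio of the transcripts was 0.704 in WT and 0.703 in Postn-DTR, nearly the same. Tapbp (ENSMUSG00000024308, chromosome 17, 33915899 to 33929292 on the plus strand), whose product tapasin bridges the transporter to empty class I molecules, stood at 169.3 FPKM in WT against 157.9 in Postn-DTR. Its change of -0.10 was the smallest in size among the 10 genes.

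Psmb8 (ENSMUSG00000024338, 34197721 to 34201454, plus strand) and Psmb9 (ENSMUSG00000096727, 34181987 to 34187764, minus strand) encode the inducible subunits beta5i and beta1i. Psmb8 stood at 138.1 FPKM in WT against 120.0 in Postn-DTR, with a change of -0.20. Psmb9 stood at 88.9 FPKM in WT against 56.5 in Postn-DTR, 1.57-fold lower, or a change of -0.65. It was the largest difference among the 10 genes, and 7.42% of all genes compared had a more negative change. Psmb9 was lower by more than Tap1, with which it shares its promoter region. The Psmb9 to Tap1 ratio was 1.65 in WT and 1.28 in Postn-DTR, a log2 difference of -0.36.

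The inducible subunits were then set against the constitutive subunits that they replace in the proteasome. Psmb5, Psmb6 and Psmb7 had higher FPKM in Postn-DTR as deposited and lower FPKM with acinar genes removed and totals equal. As deposited they were at 117.3 and 138.0 for Psmb5, 116.5 and 130.1 for Psmb6, and 115.7 and 124.1 for Psmb7. The third inducible subunit gene, Psmb10, was at 78.2 (WT) and 68.9 (Postn-DTR). All 3 inducible to constitutive ratios were lower in Postn-DTR. Psmb8 over Psmb5 was 1.18 in WT and 0.870 in Postn-DTR, a log2 difference of -0.44. Psmb9 over Psmb6 was 0.763 in WT and 0.434 in Postn-DTR, a log2 difference of -0.81. Psmb10 over Psmb7 was 0.676 in WT and 0.555 in Postn-DTR, a log2 difference of -0.28. In WT the beta5i transcript was thus above its constitutive counterpart, and in Postn-DTR it was below.

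**Figure D2:**
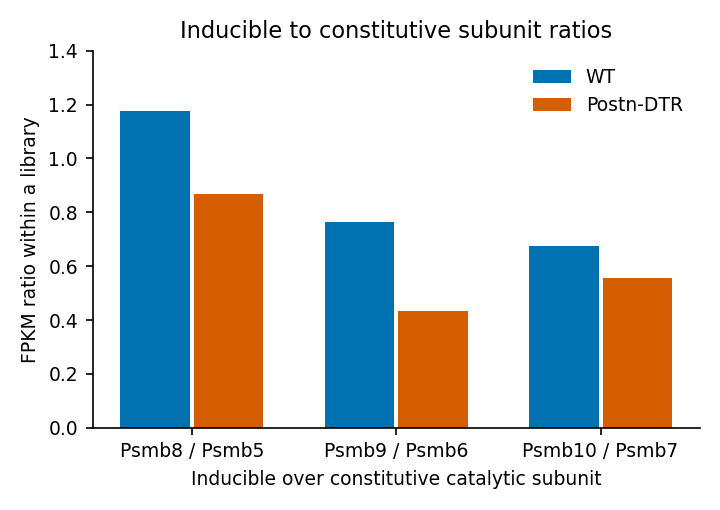
FPKM of each inducible catalytic subunit gene divided by that of the constitutive subunit it replaces, 1 bar per library with no error bar because there was 1 library per genotype. The Postn-DTR bar is below the WT bar in all 3 pairs, with the widest gap for Psmb9 over Psmb6, at 0.763 and 0.434.

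Nlrc5 (ENSMUSG00000074151, chromosome 8, 94434356 to 94527272 on the plus strand) was the least abundant of the 10 genes. Its FPKM was 9.78 in WT and 8.60 in Postn-DTR, with a change of -0.17. The class II transactivator gene Ciita was at 15.6 (WT) and 3.75 (Postn-DTR), with a change of -1.80. The Nlrc5 to Ciita ratio was therefore 0.628 in WT and 2.29 in Postn-DTR. The class II genes differed in the same direction as Ciita, with all 10 lower in Postn-DTR, 5 of them at least 2-fold, and a median of -1.01. H2-Ab1, a class II beta chain, was at 1177 and 602.4. The H2-K1 to H2-Ab1 ratio was 1.17 in WT and 2.89 in Postn-DTR, and the B2m to Cd74 ratio was 0.920 in WT and 1.99 in Postn-DTR, where Cd74 encodes the invariant chain of class II molecules. H2-K1 and B2m thus stood close to these class II genes in WT and above them in Postn-DTR.

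Counting error was small for these abundant genes. The estimated number of fragments ran from 1540 for Nlrc5 in Postn-DTR to 92700 for H2-D1 in Postn-DTR. The 95% counting interval of the log2 ratio was -0.75 to -0.56 for Psmb9, -0.29 to -0.087 for Nlrc5, -0.14 to -0.061 for Tapbp and 0.21 to 0.25 for B2m, and for all 10 genes it lay on 1 side of 0. These intervals cover counting error only and say nothing of the spread between mice. The directions were less secure against scaling. With acinar genes removed and totals equal, 9 of the 10 genes were lower, since B2m was then at -0.11, H2-T23 at -0.080 and H2-K1 at -0.014, and H2-D1 remained higher at 0.076. With equal totals alone H2-K1 was at 0.021, H2-D1 at 0.11, H2-T23 at -0.045 and B2m at -0.080. Relative to the median of all genes the order held. Equal totals multiply a library by a constant and move every change by a similar amount, so this could hardly come out otherwise. The 4 chain genes lay 0.21 to 0.40 above that median as deposited and 0.17 to 0.36 above it with acinar genes removed and totals equal, and the other 6 lay at -0.66 to -0.12 from it as deposited and at -0.70 to -0.16 in the latter case.

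**Figure D3:**
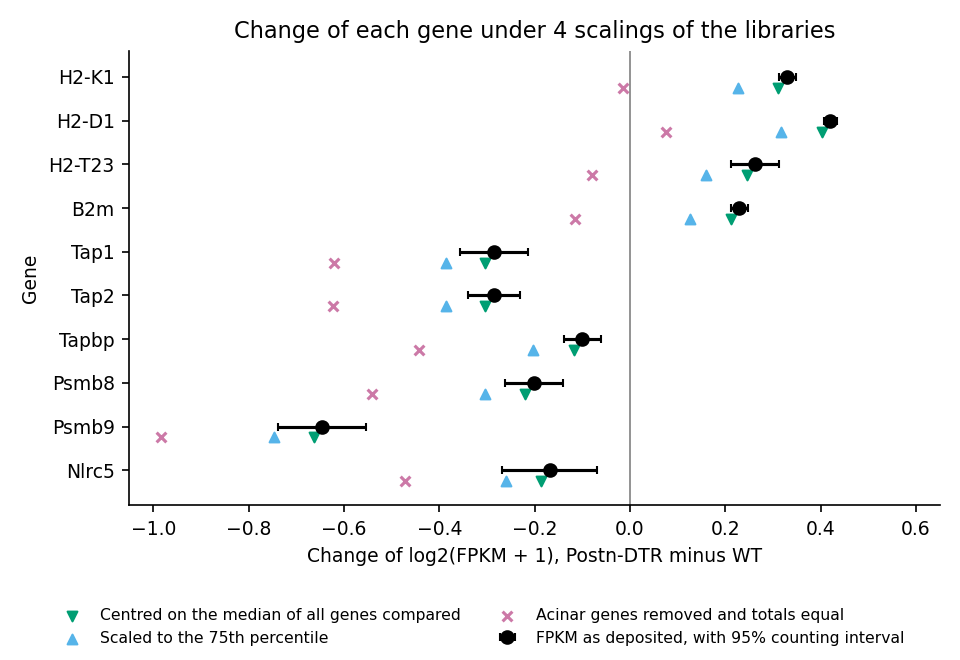
Postn-DTR minus WT difference in log2(FPKM + 1) for each gene. Black circles give the FPKM as deposited with a bar for the 95% counting interval of the log2 ratio, and the coloured marks give the same change under 3 other scalings. The chains lie between 0.23 and 0.42 as deposited, and removing the acinar genes and making totals equal moves every gene to the left by a similar amount and brings H2-K1, H2-T23 and B2m below 0.

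A ratio within a library avoids the scaling altogether. Each of the 4 chain genes was divided by each of the 6 other genes, and all 24 ratios were higher in Postn-DTR. As deposited all 4 chains were higher and all 6 others lower, so this count was fixed in advance and is no separate check. The log2 differences ran from 0.33 for B2m over Tapbp to 1.08 for H2-D1 over Psmb9, with a median of 0.54. The 24 ratios share their 10 genes and are not independent of each other. They show unequal differences between the chains and the supply genes, and not which of the groups differed.

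Over the 10 genes the median change was -0.13, beside 0.02 over all genes compared. The 4 chain genes had a median of 0.30 and the other 6 a median of -0.24. With acinar genes removed and totals equal, the median was -0.46 over the 10, -0.047 over the chains, -0.58 over the other 6 and -0.28 over all genes, and after scaling to the 75th percentile it was -0.23 over the 10 and -0.073 over all genes. As deposited, 48.1% of all genes compared were lower and 51.9% were higher, with 25th and 75th percentiles of -0.24 and 0.28.

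**Figure D4:**
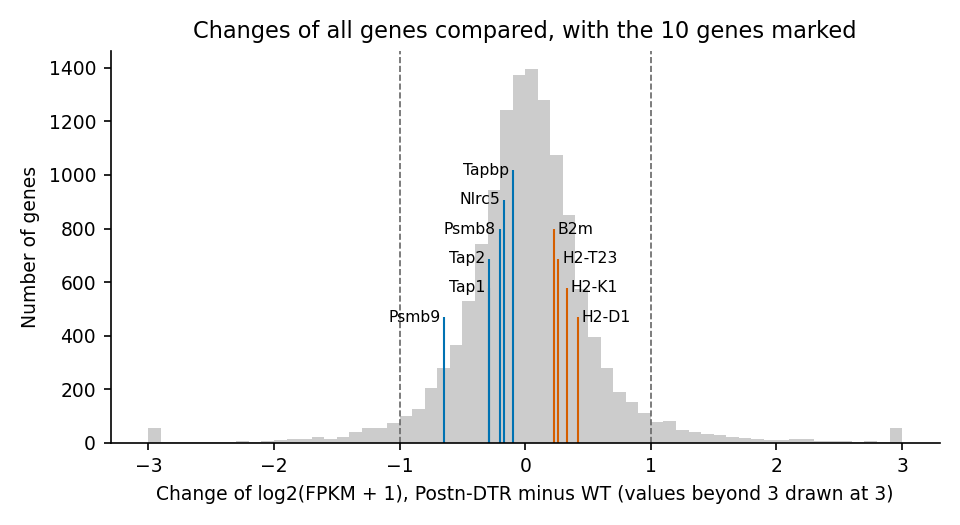
Histogram of the Postn-DTR minus WT difference in log2(FPKM + 1) over the 13127 genes compared, in bins of 0.1, with a line at each of the 10 genes, whose height carries no value, and dashed lines at the 2-fold thresholds. Changes beyond 3 are drawn at 3. All 10 lines stand inside the thresholds, from -0.65 for Psmb9 to 0.42 for H2-D1.

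Other genes of the class I pathway were read from written lists. Of 7 genes for peptide loading and trimming, the Postn-DTR value was lower in all 7, with a median of -0.19 and none past 2-fold. Calr, which encodes the chaperone calreticulin of the loading complex, was at 597.8 and 477.1, and Erap1, which encodes the peptidase that trims peptides, was at 22.7 and 19.8. Of 4 further inducible proteasome genes 3 were lower, with a median of -0.15, and all 4 were lower with acinar genes removed and totals equal. Psme1 and Psme2, which encode the PA28 activator, were at 192.6 and 193.2 and at 183.5 and 160.6. Among 14 regulators of class I transcription 9 were lower and 5 higher, with a median of -0.13 and none past 2-fold as deposited, and 12 were lower with acinar genes removed and totals equal. Irf1, a direct activator of class I promoters, was at 63.5 and 55.4. Ifng itself was at 0.598 and 0.330, under the minimum for comparison, and the receptor gene Ifngr1 was at 121.4 and 133.1. Of 7 compared genes for interferon ligands, receptors and their kinases 5 were higher and 2 lower, with a median of 0.11, whereas 1 was higher and 6 lower with acinar genes removed and totals equal.

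The other heavy chains of the H2 complex did not share a direction. Of 19 listed, 15 were compared, 9 higher and 6 lower, with a median of 0.04, or 3 higher and 12 lower with acinar genes removed and totals equal. The 3 were H2-Q4, H2-Q6 and H2-Q7. H2-Q4 was at 183.8 and 245.8, and H2-Q7, which encodes Qa-2, at 110.2 and 158.9, with changes of 0.42 and 0.52 that resemble those of the classical chains. H2-Q9, H2-M9, H2-Q10 and H2-M2 were at least 2-fold lower. H2-Q9 was at 37.6 (WT) and 11.0 (Postn-DTR), but it has near-identical neighbours. As deposited, the sum of H2-Q6, H2-Q7, H2-Q8 and H2-Q9 was 213.7 in WT and 262.3 in Postn-DTR, a log2 difference of 0.30. With acinar genes removed and totals equal the median of all genes moved by -0.30, so the direction of this sum is not secure against scaling. H2-Q10, whose product is secreted, was at 35.2 and 13.8. H2-M9 was at 6.23 and 1.76 and H2-M2 at 2.14 and 0.469. Of 4 compared class I-like chains encoded elsewhere 3 were lower, and with acinar genes removed and totals equal all 4 were. Cd1d1, which presents lipids to NKT cells, was at 52.5 and 24.4 with a change of -1.07, and Fcgrt, the heavy chain of the neonatal Fc receptor, which also binds B2m, was at 208.6 and 259.0.

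Receptors for class I molecules were mostly lower. Of 5 compared genes 4 were lower. Klrd1, which encodes CD94, the partner of NKG2A in binding Qa-1, was at 8.92 (WT) and 3.87 (Postn-DTR), and the CD8 alpha chain gene Cd8a at 2.81 and 0.897. Pirb, an inhibitory class I receptor of myeloid cells and B cells, was higher, at 43.3 and 91.3, also with acinar genes removed and totals equal.

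Markers of the cell types of the omentum differed along with these values. Of 7 T cell markers 6 were measured, and all 6 had the lower value in Postn-DTR, median -1.04 and summed FPKM of 79.2 against 35.0. All 6 B cell markers were lower, with a median of -0.99 and sums of 472.3 and 323.5. All 6 macrophage markers were higher, with a median of 1.12 and sums of 2869 and 4616. The 4 pan-leukocyte markers were split, with Ptprc, which encodes CD45, at 55.6 and 35.4 and Laptm5 at 225.1 and 403.7. Of 7 fibroblast markers 6 were lower, with sums of 2475 and 1499, and all 7 were lower with acinar genes removed and totals equal. Of 4 endothelial markers 3 were lower, with sums of 201.3 and 183.3, and all 4 were lower under that scaling. No measured marker of these 6 lists was at 0. In whole tissue, fewer cells of a type and less RNA per cell cannot be told apart, and the part of cell makeup in the class I values was not tested.

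**Figure D5:**
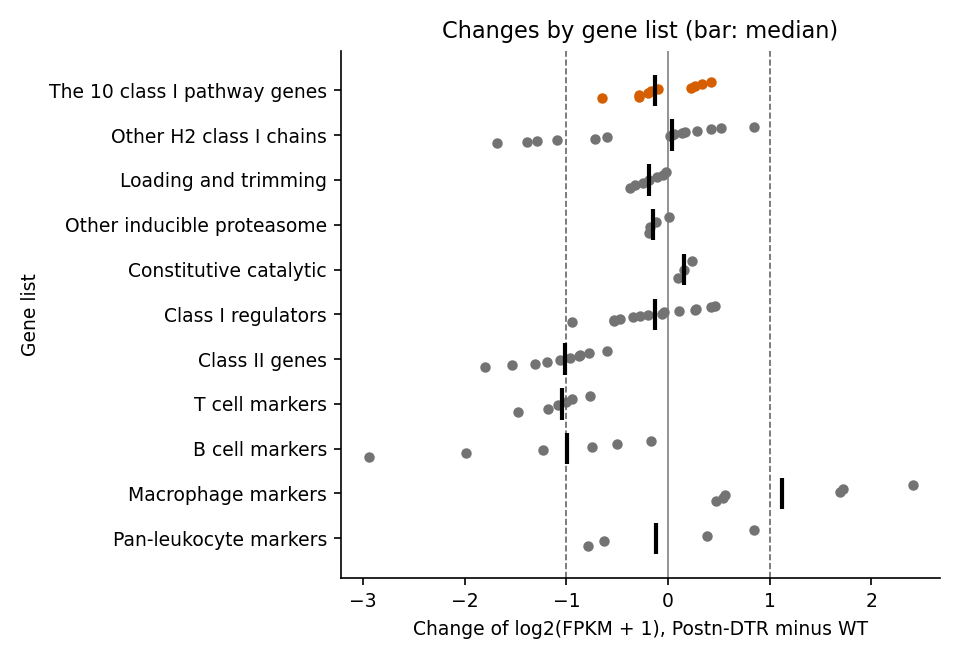
Postn-DTR minus WT difference in log2(FPKM + 1) of every compared gene in 11 lists, with 1 point per gene, a black bar at the list's median and dashed lines at the 2-fold thresholds. The 10 class I pathway genes, in orange, lie close to 0 with a median of -0.13, while class II genes, T cell markers and B cell markers have medians of -1.01, -1.04 and -0.99 and macrophage markers one of 1.12, all as deposited. With acinar genes removed and totals equal, the medians of the 10 genes, class II genes and macrophage markers are -0.46, -1.36 and 0.78.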

How the data were processed

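One WT and 1 Postn-DTR library of omentum were compared, grouped by their genotype labels. A stranded TruSeq mRNA kit was used after miRNeasy extraction, per the labels, whose protocol speaks of cells. The paper's RNA-seq methods instead name RNeasy Micro and NEBNext Ultra kits, and do not describe whole omentum separately. The authors deposited FPKM, 1 value per gene symbol and library. The submitters' processing notes name TopHat2 2.1.1, Bowtie2 2.2.8, SAMtools 0.1.18, Cuffdiff 2.2.1 and mm10. The annotation, the treatment of reads that match several genes, and any scaling between the libraries are not given in the sources used here.

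The change was log2(FPKM + 1), Postn-DTR minus WT, over genes whose mean FPKM was 1 or more, with a threshold of 2-fold. Folds and percent differences of single genes are ratios of FPKM without the pseudocount. Depth was estimated from 366 genes in WT and 326 in Postn-DTR with 1 annotated transcript over 1000 bp and an FPKM under 0.1. With lengths reduced by 220 bp, 81.1% of these values in WT and 79.1% in Postn-DTR fell within 0.1 of a whole fragment, a band that covers 20% of the line. Counting intervals use the longest protein-coding transcript in GENCODE M21 (GRCm38) and are approximate. Promoter windows are RefSeq's on GRCm38.p6. Python 3.11.15, pandas 2.3.3 and NumPy 2.4.6 were used.

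The 10 genes and the 19 gene lists were chosen with earlier results of these data known. Named genes were the 10, Psmb5, Psmb6, Psmb7, Postn and, of every other list, at most the 5 genes of highest mean FPKM and any at least 2-fold different. Ifng, Cfd, Saa3 and the genes of the summed H2-Q family fall outside this rule and were named after their values were seen. The ratios other than those of proteasome subunits and the shares of shared windows were likewise added after values were seen.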

Additional observations from a re-analysis of the deposited data

How the results depend on the processing

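There were 8 alternatives for each gene, beside other fold thresholds. No gene was past 2-fold in either direction under any alternative pseudocount, minimum or scaling, or at 3-fold. Psmb9 came close to 2-fold lower, at -0.98 with acinar genes removed and totals equal and at -0.95 with equal totals alone. At 1.5-fold 1 gene, Psmb9, was lower, or 3 with Tap1 and Tap2 under either kind of equal totals. The median change of the 10 genes, -0.13, was -0.14 with a pseudocount of 0.1, -0.11 with a pseudocount of 5, -0.10 with a mean FPKM of at least 10, which leaves out Nlrc5, -0.15 after centring on the median of all genes, -0.23 after scaling to the 75th percentile, -0.46 with acinar genes removed and totals equal, and -0.42 with totals equal and acinar genes kept. With both steps H2-K1 reversed to -0.014, H2-T23 to -0.080 and B2m to -0.11, and with equal totals alone H2-T23 to -0.045 and B2m to -0.080. No other direction turned under these alternatives or with H2-L added to H2-D1. Equal totals alone and the sum with H2-L were chosen after seeing the data. The 3 proteasome ratios kept their direction with a pseudocount or with the mean of Psmb5, Psmb6 and Psmb7 as denominator. No paired analysis was possible because each genotype had 1 library, and for the same reason no library could be left out.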

Other observations

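Between Tapbp and H2-T23, the outermost of the 10 genes on chromosome 17, the annotation places 106 compared genes within 2.12 Mb, 8 of them among the 10. Of the other 98 genes 54 were lower and 44 higher, at a median of -0.080 on the scale as deposited. At least 2-fold lower were 8 of them, or 8.16%, beside 3.12% of all genes compared. Among these 8 were the class II genes H2-Eb1, H2-DMb2, H2-Oa and H2-Ob and the class I chain gene H2-Q10. These genes are already counted in the lists above, so the share is not a separate result about the region. At least 2-fold higher were 5, or 5.10%, beside 3.88% of all genes compared.

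The 10 genes made up 1.25% of all FPKM in WT and 1.22% in Postn-DTR. The 4 chain genes carried most of this, at 1.16% and 1.15%, and the other 6 made up 0.0990% in WT and 0.0669% in Postn-DTR. The class II list stood at 1.36% and 0.581%.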
